A study of Sus scrofa with 14 samples.

Results

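Macrophage marker genes were followed in the meniscus, the crescent of fibrocartilage between thigh and shin bone, of male Wuzhishan pigs. The list held 9 genes chosen as markers of the cell type, and every non-control probe whose RefSeq accession belonged to a transcript of one of them was taken. This gave 14 probes for 6 genes, out of 5461 probes matched to 2389 named genes among the 43603 probes of the array: 2 probes for CD14, 4 for CD163, 3 for LYZ, 2 for TYROBP, 1 for FCER1G and 2 for CD86. CD68, MSR1 and CSF1R matched no probe by accession and were not analysed here.

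One group, called OA for osteoarthritis, was 7 pigs that had anterior cruciate ligament surgery, and the other was 7 pigs that had a sham operation. The meniscus was collected 24 weeks later in both. All 14 animals were described as healthy adult males of 6 to 7 months and 15 to 18 kg, divided at random, and no genetic change or drug treatment is given for either group. There was 1 array for each of the 14 pigs, with RNA labelled with Cy3. The labels do not say which part of the meniscus was used or how the ligament was operated on.

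Macrophages are phagocytes that take up debris and microbes, present antigen and release cytokines. In joints they sit mainly in the synovial membrane, and they are much studied in osteoarthritis, whereas the meniscus is mostly fibrochondrocytes in collagen. The markers differ in role: CD14 is the coreceptor that hands lipopolysaccharide to Toll-like receptor 4, CD163 is the scavenger receptor for haptoglobin-haemoglobin complexes, and LYZ is lysozyme, an enzyme that cleaves bacterial cell walls. TYROBP (DAP12) and FCER1G (the Fc receptor gamma chain) are small membrane adaptors that carry the activation signal of many myeloid receptors, and CD86 is a costimulatory ligand that T cells read through CD28. None of these genes is exclusive to macrophages: neutrophils also make LYZ, natural killer cells TYROBP and FCER1G, mast cells FCER1G, and dendritic and B cells CD86. In whole tissue, fewer macrophages and less RNA of a gene per macrophage cannot be told apart.

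The arrays of the groups lay on different slides, where a slide means arrays that share the same scan date and time. Sham arrays lay on slides 1 and 2, while OA 1 lay on slide 3, OA 2 to OA 5 on slide 4 and OA 6 and OA 7 on slide 5. All sham arrays were scanned on day 1, OA 1 on day 2 and OA 2 to OA 7 on day 3, so group cannot be told apart from slide or scan day. The 75th percentile of the signal was 417.8 to 621.6 on sham arrays, 404.4 to 491.7 on slide 5, 225.9 on slide 3 and 156.0 to 250.3 on slide 4, and 67.94 to 78.9% of probes were well above background on slide 4 against 89.74 to 95.17% on sham arrays. Of the meniscus genes fixed for a tissue check, 5 were measured (ACAN, COL5A1, DCN, SOX9 and SPARC), and all 5 were well above background on every array. Below, a signal is given as a percentage of the array's 75th percentile, and changes are OA minus sham on the log2 scale.

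The macrophage markers gave no difference between OA and sham menisci that passed the test. All 14 probes were bright enough to be tested, and 0 had an adjusted p under 0.05 by limma, with 1 at an unadjusted p under 0.05. Over all 38818 tested probes, 3.73% passed the adjusted threshold (2.89% higher and 0.848% lower in OA) and 19.6% the unadjusted one. The groups overlapped for all 14 probes, while 1.73% of all tested probes had groups that did not overlap. The fitted change was positive for 10 probes and negative for 4, with a median of 0.23. Over all tested probes 55% had a negative change and the median was -0.05, but these values varied with signal. Among the dimmest tested probes (4.15 to 11.1 units) the median was -0.36 and 74.7% were negative. All markers except CD14 A_72_P756625 and CD86 A_72_P539768 had a mean signal above 152 units. In bins of tested probes above that signal, medians were -0.02 to 0.09 and 36.3 to 53% were negative. Of the 10 positive marker probes, 7 read CD163 or LYZ, and with all probes of a gene averaged 3 genes were positive and 3 negative. Without slide 4 the split was 7 positive and 7 negative, with a median of 0.03 for the markers and 0.03 for all tested probes.

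**Figure D1:**
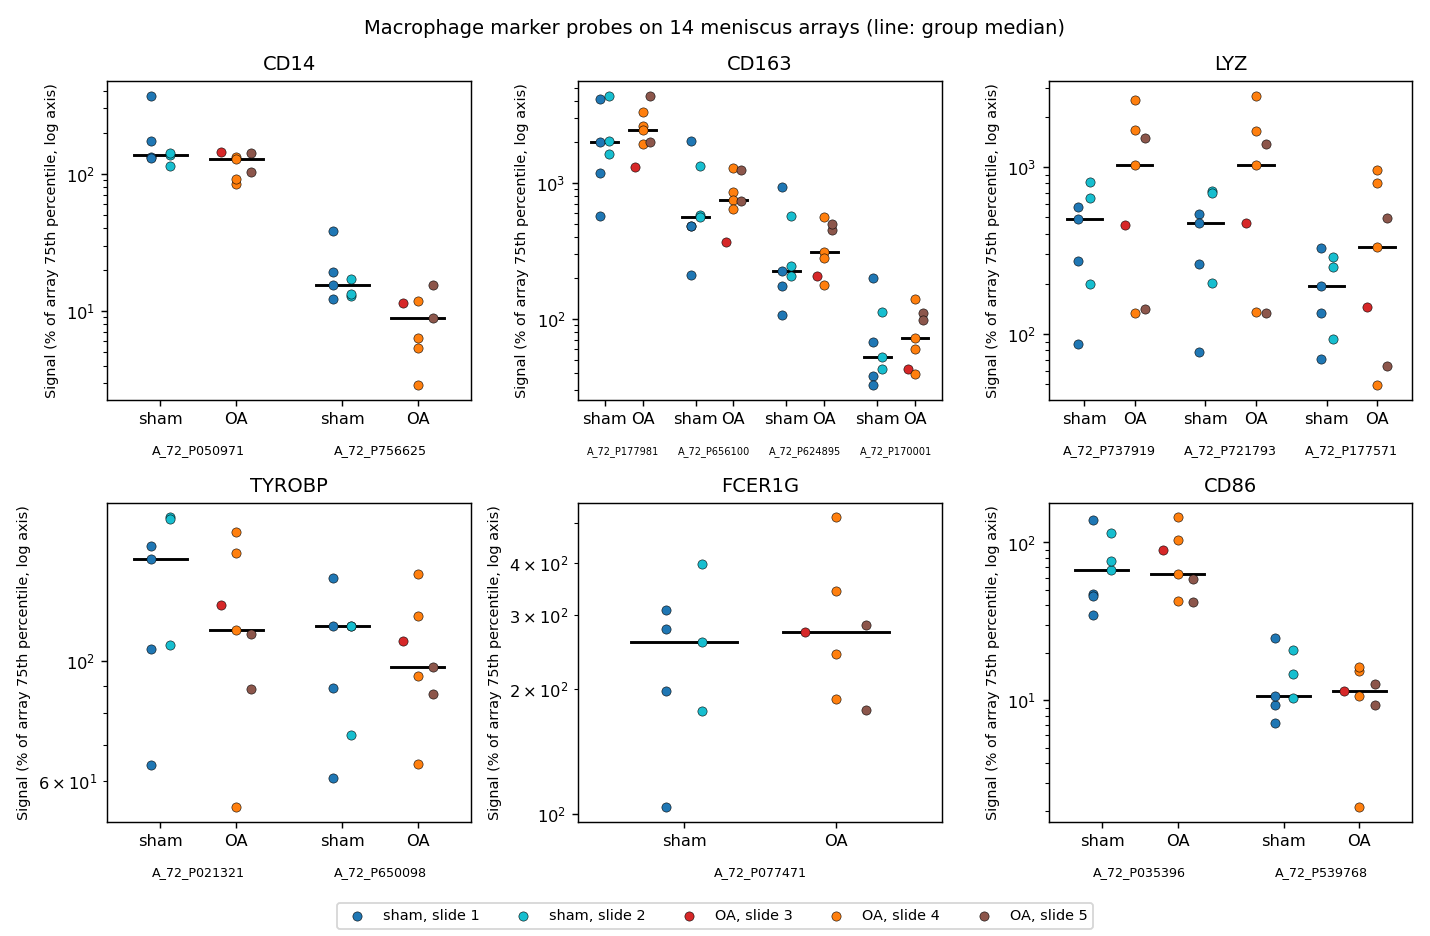
Signal of the 14 macrophage marker probes, in percent of each array's 75th percentile on a log axis, with 1 point per array, coloured by slide, and a line at the group median (7 sham and 7 OA arrays). The groups overlap for every probe; LYZ has the widest spread within OA, and on slide 4 the CD14 probe A_72_P756625 reaches down to 2.88.

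CD14, the lipopolysaccharide coreceptor, was the marker with the smallest p, and its 2 probes lay on the same side. Probe A_72_P050971 read 115% on the lowest sham array, 138% at the median and 373% on the highest, and 84.7, 129 and 144% in OA. The highest sham array, sham 4, stood far above the next at 174%, and OA 2, OA 3 and OA 7 lay below every sham value. The change was -0.45 ± 0.24 (SE, n = 7 per group; 95% interval -0.96 to 0.07; limma adjusted p = 0.33).

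Probe A_72_P756625 of CD14 was dimmer and showed a wider gap. It read 12.2% on the lowest sham array, 15.5% at the median and 38.4% on the highest, again sham 4, and 2.88, 8.95 and 15.5% in OA. OA 6 lay within the sham range and the other 6 OA arrays below it, with OA 1 at 11.4% and OA 5 at 11.8% close to its lower end. On OA 3 the probe was not well above background. The change was -1.12 ± 0.35 (SE, n = 7 per group; 95% interval -1.85 to -0.38; unadjusted p = 0.0052; limma adjusted p = 0.084). With quantile normalization the adjusted p was 0.040, with median scaling 0.044, from the authors' deposited log2 values 0.038 and without OA 6 0.046. Normexp background correction gave a change of 0.06 against a median of 0.34 over all probes, of which 47.3% passed. Under normexp the brighter probe A_72_P050971 stood at -0.44 (95% interval -0.86 to -0.02, limma adjusted p = 0.081).

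Both CD14 probes read below the sham mean on all 7 OA arrays, which was so for 4.18% of all tested probes. Against the mean of the sham arrays other than sham 4, 5 of 7 OA arrays were below for A_72_P050971 and 6 of 7 for A_72_P756625. The 2 probes tracked each other over the 14 arrays once group means were removed (Pearson r = 0.75, permutation p = 0.0032, adjusted p = 0.0035; Spearman rho = 0.70, permutation p = 0.012, adjusted p = 0.012), and r was 0.75 within slides and 0.63 without sham 4 and OA 1. The CD14 values were also set beside slide and array brightness. The dimmer probe read 2.88 to 11.8% on slide 4, 11.4% on slide 3 and 8.95 and 15.5% on slide 5. Without slide 4 the changes were -0.55 ± 0.33 for A_72_P756625 and -0.29 ± 0.33 for A_72_P050971 (SE; limma adjusted p = 0.57 and 0.81), and with the slide as a random block -1.01 and -0.40 (adjusted p = 0.46 and 0.77). With array brightness as a covariate they were -0.32 and -0.30 (adjusted p = 0.92 and 0.90). Among tested probes with a mean signal close to that of A_72_P756625 (32.6 to 52.1 units), the median change was -0.06 and 55.8% were negative. The part of brightness in the CD14 values was not tested further.

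CD163, the haemoglobin scavenger receptor, was read by 4 probes, and their changes, 0.20 to 0.36, did not pass the test. Probe A_72_P177981 read 568% on the lowest sham array, 2010% at the median and 4380% on the highest, and 1320, 2440 and 4400% in OA. The sham arrays spanned 7.72-fold, from sham 2 to sham 7 with sham 4 next at 4130%, and 6 of 7 OA values lay inside that span, OA 7 being just above it. The change was 0.36 ± 0.40 (SE, n = 7 per group; limma adjusted p = 0.65), with a 95% interval from -0.47 to 1.20. The other 3 probes stood at 0.29, 0.26 and 0.20, with adjusted p from 0.74 to 0.82. With array brightness as a covariate the 4 changes were 0.98 to 1.21 (limma adjusted p from 0.62 to 0.75), and without slides 3 and 4 they were 0.58 to 0.79 (adjusted p from 0.71 to 0.81).

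The 4 CD163 probes ordered the animals alike, with Pearson r from 0.75 to 0.97 over 6 pairs of probes (permutation, largest adjusted p = 0.0055). On each of the 4, sham 2 was the lowest sham array, and sham 4 was the highest on all but A_72_P177981, where sham 7 was. The SD of the log2 values was 1.02 in sham and 0.57 in OA for A_72_P177981, and the ratio of OA to sham ran from 0.555 to 0.737 over the 4 probes. This difference in spread was not tested.

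LYZ, lysozyme, had the largest positive changes of the 6 genes and the widest spread between OA animals. Probe A_72_P737919 read 86.8% on the lowest sham array, 492% at the median and 819% on the highest, and 133, 1030 and 2540% in OA. OA 2, OA 4, OA 5 and OA 6 lay above every sham value, OA 1 lay in mid-range at 450%, and OA 3 and OA 7, at 133 and 141%, lay near the lowest sham array. The OA values thus spanned 19.1-fold and the sham values 9.43-fold. The change was 0.89 ± 0.68 (SE, n = 7 per group; limma adjusted p = 0.50), and the 95% interval ran from 0.683-fold to 5.04-fold.

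The other LYZ probes repeated the order of the animals (Pearson r = 0.96 to 1.00 over 3 pairs of probes; permutation, adjusted p = 2e-05 for each). A_72_P721793 stood at 0.95 ± 0.69 and A_72_P177571 at 0.55 ± 0.63 (SE; limma adjusted p = 0.47 and 0.67). Of the 4 high OA arrays, 3 were on slide 4, as was the low OA 3, and within slide 4 A_72_P737919 ran from 133 to 2540%. Without slide 4 the 3 changes were 0.36, 0.37 and -0.02 (adjusted p = 0.91, 0.91 and 0.99), and with array brightness as a covariate 0.38, 0.33 and 0.07 (adjusted p = 0.96, 0.96 and 0.99).

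The adaptors TYROBP and FCER1G did not differ between the groups beyond the spread between animals. TYROBP probe A_72_P021321 read 64.1% on the lowest sham array, 154% at the median and 184% on the highest, and 53.7, 114 and 173% in OA. The lowest arrays were sham 2 and OA 3, and the other arrays of both groups mixed. Its change was -0.22 ± 0.28 and that of A_72_P650098 was 0.02 ± 0.22 (SE, n = 7 per group; limma adjusted p = 0.71 and 0.96). The 95% interval of A_72_P650098, the narrowest of the 14 probes, ran from 0.737-fold to 1.40-fold.

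FCER1G, read by the single probe A_72_P077471, read 104% on the lowest sham array, 259% at the median and 399% on the highest, and 178, 274 and 515% in OA. Sham 2 was again the lowest and OA 2 the highest of all arrays, with 5 of 7 OA arrays above the sham mean. The change was 0.26 ± 0.29 (SE, n = 7 per group; 95% interval 0.78-fold to 1.83-fold; limma adjusted p = 0.67).

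CD86, the costimulatory ligand, did not differ beyond its spread on either probe, and the 2 fitted changes had opposite signs. Probe A_72_P035396 read 34.7% on the lowest sham array, 66.8% at the median and 138% on the highest, and 41.7, 63.1 and 144% in OA. Both groups covered much the same range, from sham 2 to sham 1 and from OA 6 to OA 2. The change was 0.08 ± 0.34 (SE, n = 7 per group; limma adjusted p = 0.93). The dim probe A_72_P539768 ran from 7.24 to 25% with a median of 10.7% in sham and from 2.11 to 16.2% with a median of 11.5% in OA, where OA 3 was not well above background. It stood at -0.42 ± 0.40 (adjusted p = 0.60), and the probes tracked each other over the 14 arrays (Pearson r = 0.77, permutation p = 0.00046, adjusted p = 0.00061; Spearman rho = 0.86, permutation p = 0.00061, adjusted p = 0.001).

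**Figure D2:**
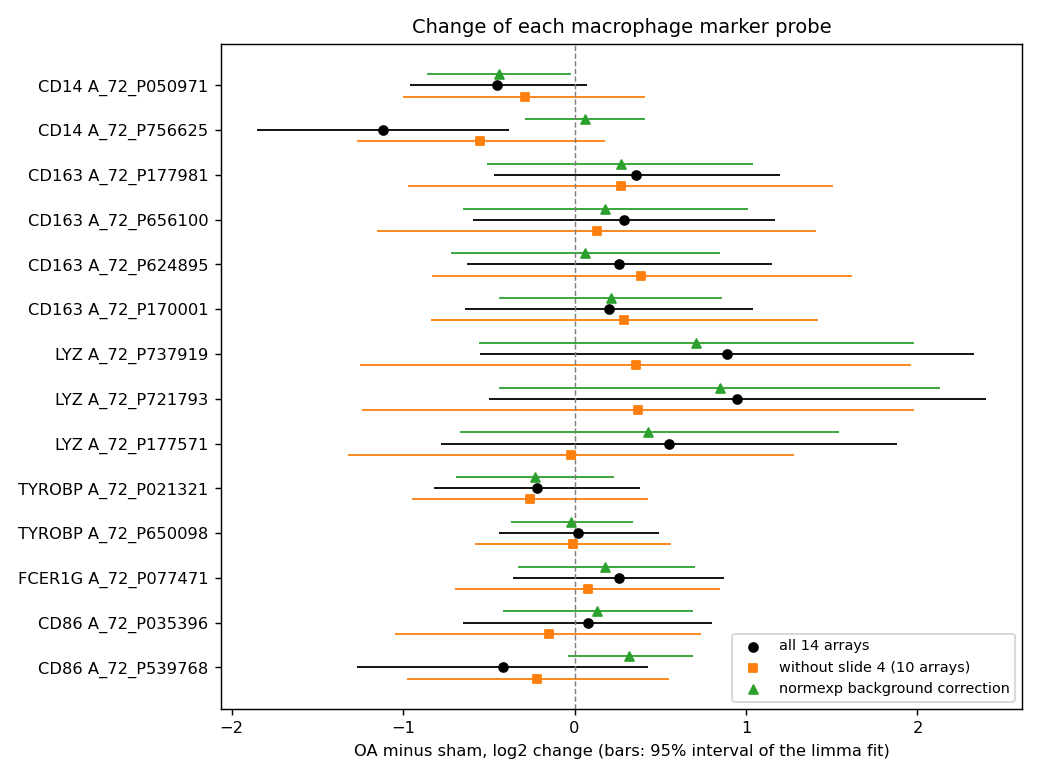
Log2 change, OA minus sham, of each macrophage marker probe with its 95% interval from the limma fit, for all 14 arrays (circles), without slide 4 (squares) and after normexp background correction (triangles). Of the 14 intervals over all arrays, only that of CD14 A_72_P756625 (-1.85 to -0.38) leaves out 0, and it includes 0 without slide 4.

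Although group means did not separate, some of the markers varied together from animal to animal. For each gene the probe with the highest mean signal was used, group means were removed, and 15 pairs of genes were compared over 14 arrays with two-sided permutation tests within groups (100000 permutations, Benjamini-Hochberg adjusted over the 15). TYROBP, FCER1G and CD86 formed the 3 pairs past the threshold by Pearson r. FCER1G and CD86 gave r = 0.80 (permutation p = 0.0011, adjusted p = 0.012) and rho = 0.77 (permutation p = 0.0039, adjusted p = 0.033). TYROBP and FCER1G gave r = 0.78 (permutation p = 0.0017, adjusted p = 0.012) and rho = 0.71 (permutation p = 0.0088, adjusted p = 0.033). TYROBP and CD86 gave r = 0.77 (permutation p = 0.0024, adjusted p = 0.012) and rho = 0.75 (permutation p = 0.0055, adjusted p = 0.033).

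These 3 relations were also seen within slides and without the 2 arrays most extreme for the first-named gene of each pair. Within slides, with the lone array of slide 3 left out (13 arrays), r was 0.79, 0.77 and 0.76 in the same order. Without the 2 arrays farthest from the median of the first-named gene it was 0.70, 0.82 and 0.69. Arrays extreme only for the second gene were kept. Within sham arrays r was 0.77, 0.95 and 0.69 and within OA arrays 0.85, 0.59 and 0.86. The points share the scaling of each array to its own 75th percentile. How often other pairs of tested genes reach such r on these arrays was not counted.

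CD163 and CD14 did not join them. CD163 gave r = 0.58 with FCER1G (permutation p = 0.048, adjusted p = 0.14; rho = 0.38, permutation p = 0.22, adjusted p = 0.54), which became 0.13 without sham 2 and sham 7, so that it rests on those samples. Within sham arrays CD163 gave r = 0.86 with FCER1G, 0.82 with TYROBP and 0.53 with CD86. Within OA arrays these were -0.02, -0.11 and -0.20, and within slides 0.63, 0.50 and 0.33. The difference between the groups was not tested. CD14 gave r between -0.29 and 0.24 with the other 5 genes (permutation, adjusted p from 0.53 to 0.98). LYZ and TYROBP gave r = 0.62 (permutation p = 0.022, adjusted p = 0.082) and rho = 0.73 (permutation p = 0.0067, adjusted p = 0.033), with r = 0.61 within slides and 0.55 without OA 3 and OA 7. The heat map of deviations shows sham 2 low for CD163, TYROBP, FCER1G and CD86 at once, and OA 3 and OA 7 low for LYZ.

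**Figure D3:**
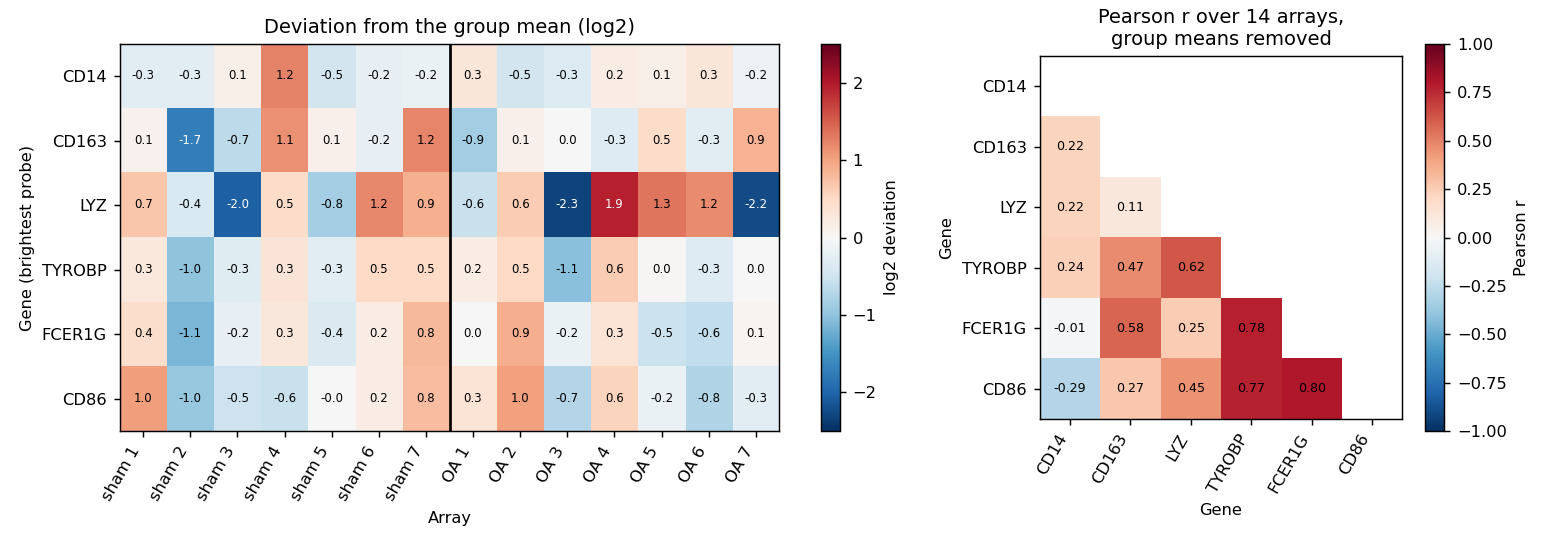
Left, log2 deviation of each array from its group mean for the brightest probe of each macrophage marker (7 sham arrays, then 7 OA arrays); right, Pearson r between the genes over the 14 arrays with group means removed. TYROBP, FCER1G and CD86 give r from 0.77 to 0.80 with each other, and CD14 gives -0.29 to 0.24 with the other genes.

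Genes with the most similar pattern were taken from the 2257 other tested named genes by the highest Pearson r over the same 14 arrays with group means removed, as a description without a test. CD86 was closest to SLA-DRA, the alpha chain of a pig MHC class II molecule (r = 0.93), and to AIF1, a calcium-binding protein of macrophages (r = 0.93). FCER1G was closest to AIF1 (r = 0.90) and to PIK3CG, a phosphoinositide 3-kinase subunit of leukocytes (r = 0.88). TYROBP was closest to HMOX1, the haem-degrading oxygenase (r = 0.88), and PTBP3, an RNA-binding protein (r = 0.87). CD163 was closest to SAT1, a polyamine acetyltransferase (r = 0.93), and CAT, catalase (r = 0.91). LYZ was closest to SELE, the endothelial adhesion molecule E-selectin (r = 0.95), and ACTR3, an actin nucleator (r = 0.92), and CD14 to MFSD6 (r = 0.85) and SST, somatostatin (r = 0.84). AIF1 itself stood at 0.27 ± 0.38, SLA-DRA at 0.52 ± 0.29 and HMOX1 at 0.10 ± 0.47 in the group comparison (SE; limma adjusted p = 0.74, 0.33 and 0.93).

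The wider pathways of these markers were read through 6 lists, with 51 of 96 genes measured, each by its probe with the highest mean signal. Of the 51, 1 rose and 0 fell, where 3.23% of all 2258 tested named genes passed, and the median change was 0.10. The 1 gene was CSF3, granulocyte colony-stimulating factor, among 5 measured growth factors and transcription factors (CSF2, CSF3, SPI1, CEBPB and KLF4). No growth factor receptor of that list was measured. CSF3 rose by 0.90 ± 0.23 (SE, n = 7 per group; limma adjusted p = 0.037) at a mean signal of 24.8, while its other probe stood at -0.36. It did not pass with the slide as a random block (adjusted p = 0.21) or without slide 4 (change 0.57, adjusted p = 0.40), nor as the mean of both probes (0.27, adjusted p = 0.44).

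The other 5 lists held no gene past the threshold. Over 10 genes listed for lipopolysaccharide recognition and Toll-like receptor signalling, the median was 0.01. LBP, the serum protein that delivers lipopolysaccharide to CD14, stood at 0.56 ± 0.22 (limma adjusted p = 0.18). The adaptor MYD88 stood at 0.35 ± 0.20 (adjusted p = 0.34). Of 11 scavenger and lysosome genes, OLR1, a receptor for oxidized lipoprotein, stood at 0.61 ± 0.20 (adjusted p = 0.10) and LAMP1, a lysosomal membrane protein, at -0.57 ± 0.25 (adjusted p = 0.22). Of 8 genes listed around TYROBP and FCER1G signalling, 7 had a change above 0, and the median was 0.11. Some of the 7 were close to 0, such as FCGR1A at 0.04 and FCAR at 0.05. FCGR2B, the inhibitory Fc gamma receptor, stood at 0.72 ± 0.23 (limma adjusted p = 0.091), with all 3 of its probes between 0.49 and 0.77. FCGR3A, an activating one, stood at 0.39 ± 0.36 (adjusted p = 0.59). Of 6 genes around CD86, 3 had a change above 0. CD274, the ligand PD-L1, stood at -0.54 ± 0.39 (limma adjusted p = 0.47) at a mean signal of 20.7. ICOS, a T cell costimulatory receptor, stood at -0.68 ± 0.59 (adjusted p = 0.56). The other ICOS probe stood at 0.54, and the mean of both ICOS probes at -0.07. Of 11 other macrophage and monocyte genes, 9 had a change above 0 and the median was 0.27, with CCR2, the monocyte chemokine receptor, at 0.40 ± 0.27 and FOLR2, a folate receptor of resident macrophages, at -0.63 ± 0.35 (adjusted p = 0.43 and 0.34).

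**Figure D4:**
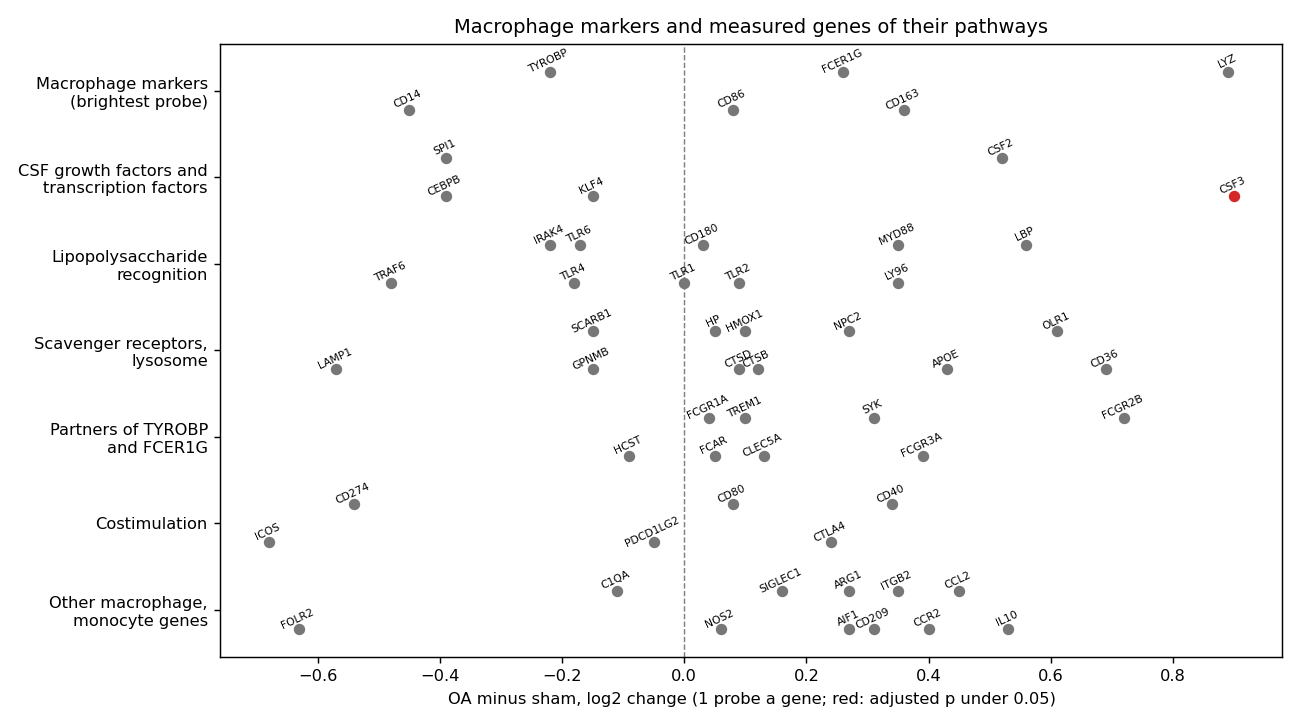
Log2 change, OA minus sham, of the macrophage markers (brightest probe) and of the 51 measured genes of 6 related lists, 1 point per gene, red where the limma adjusted p is under 0.05. CSF3, at 0.90, is the 1 red point.

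Markers of other cells that a dissected meniscus can hold were read beside the macrophage markers. In 11 lists 66 of 109 genes were measured. Of these 5 rose and 0 fell, where 3.23% of all 2258 tested named genes passed. None of the 5 passed with the slide as a random block or without slide 4. They included XCR1, a chemokine receptor of dendritic cells, at 0.89 ± 0.17 (SE; limma adjusted p = 0.012) with its other probe at -0.02. LEP stood at 0.74 ± 0.16 (adjusted p = 0.021) with its other probe at -0.34. The others were MYOD1 at 1.44 ± 0.24 (adjusted p = 0.007), TNNI1 at 0.71 ± 0.18 (adjusted p = 0.041) and KLF1 at 1.18 ± 0.32 (adjusted p = 0.047). Their mean signals were 14.7, 32.8 and 41.3. None of 6 neutrophil and mast cell genes passed, but 5 of 6 changes were positive, with a median of 0.43. Among them S100A12, a calcium-binding protein of neutrophils, stood at 1.27 ± 0.37 (SE; unadjusted p = 0.0032; limma adjusted p = 0.065) and S100A9, its relative, at 0.76 ± 0.29 (unadjusted p = 0.017; adjusted p = 0.15). Without slide 4 they stood at 0.57 and 0.36 (adjusted p = 0.37 and 0.62). Elsewhere ITGB3, an integrin of osteoclasts and platelets, stood at 0.61 ± 0.17 (adjusted p = 0.055), IL7R, a T cell cytokine receptor, at 0.56 ± 0.21 (adjusted p = 0.16) and PECAM1, an endothelial adhesion molecule, at -0.89 ± 0.42 (adjusted p = 0.26). These genes were picked after their values were seen, and each of their lists held changes of both signs. Of the 7 osteoclast genes 4 had a change above 0 (median 0.30). The same was so for 4 of 10 T and NK cell genes (median -0.08) and 1 of 4 endothelial genes (median -0.18). The summed signal of the 6 neutrophil and mast cell genes ran from 104 to 387% in sham and from 262 to 778% in OA. The sum of 8 MHC class II and dendritic cell genes ran from 11600 to 35800% and from 15000 to 50900%, and that of 10 T and NK cell genes from 231 to 1350% and from 223 to 911%. The sums of 2 B and plasma cell genes ran from 5.11 to 23.1% and from 5.78 to 13.2%, of 7 osteoclast genes from 15700 to 22000% and from 19700 to 35700%, and of 4 endothelial genes from 867 to 4160% and from 1590 to 4290%. Those of 6 synovial lining genes ran from 5350 to 9970% and from 5880 to 10300%, of 7 adipocyte genes from 595 to 2170% and from 733 to 3460%, of 9 skeletal muscle genes from 1070 to 3720% and from 792 to 2020%, and of 2 red cell genes from 11.4 to 28% and from 21.6 to 40%. Each sum is set mainly by the brightest probes in it, such as KIT among the neutrophil and mast cell genes and ITGB3 among the osteoclast genes, so overlap of the sums says little about a cell type. The part of these cells in the marker values was not tested.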

How the data were processed

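Per the file headers, the deposited intensity values came from Agilent Feature Extraction 11.0.1.1, 1 colour, with background subtracted and spatial trends removed within each array. The authors' deposited series table holds log2 values with shared quantiles, used as an alternative; each array's median was 5.99 and the ranks followed the scanner signal (Spearman rho 0.994 to 1), so a higher value is a brighter probe; how they were normalized no source used here says. Here each processed signal was divided by the 75th percentile of its array and taken to log2. The 82 spots marked as outliers were set missing, 0 were saturated, and repeated spots were averaged. The 38818 probes that 7 or more of the 14 arrays showed well above background were compared with limma 3.58.1 in R 4.3.3 (lmFit, eBayes, two-sided), Benjamini-Hochberg adjusted over all of them at 0.05. The fit was tried on simulated data that held no slide or brightness effect, so this does not cover the slide difference between the groups. Intervals are 95% intervals of that fit, and the number of arrays limits precision. Of 5779 probes with a RefSeq accession, 5461 matched the Sscrofa11.1 gene table; no coordinates are given. Slides are arrays with the same scan date and time in the file headers, numbered in array order, and no slide label was read.

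Members and lists were chosen with earlier results of these data known. Named genes were all members, in each pathway list the genes past the threshold or else the 2 with the smallest p, and in the other-cell lists those past the threshold; S100A12, S100A9, ITGB3, IL7R and PECAM1 were chosen after their values were seen. Sham and OA replicate numbers name different animals, and deviations of same-numbered arrays correlated at -0.19 to 0.27, so they do not pair. No 2 arrays were alike beyond r = 0.989. The normexp alternative used the median signal (offset 50), as the files analysed give no mean signal.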

Additional observations from a re-analysis of the deposited data

Results flagged for a closer look

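Among 28 groups of 7 arrays (14 probes, 2 groups each), 3 held an array whose gap to its nearest neighbour, as a share of the group's range of log2 values, was above Dixon's 95% critical value; chance gives about 1 in 20. Sham 4 was high for both CD14 probes, with shares of 0.644 for A_72_P050971 and 0.597 for A_72_P756625. OA 3 was low for the CD86 probe A_72_P539768, with a share of 0.727, and the probe was not well above background there. Without sham 4 the CD14 changes were -0.24 ± 0.18 and -0.92 ± 0.33 (SE; limma adjusted p = 0.51 and 0.15), and without OA 3 that CD86 change was -0.06 ± 0.27 (adjusted p = 0.95). The reason for these values was not tested.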

How the results depend on the processing

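The marker result depended on the setting at 1 probe. The count of marker probes past the threshold was 0 as reported and 1, CD14 A_72_P756625, with quantile normalization (-1.06, limma adjusted p = 0.040), median scaling (-1.10, 0.044) and the authors' deposited log2 table (-1.06, 0.038), and 0 to 1 when single arrays were left out (1 without OA 6, -1.28, 0.046). Over its 28 alternatives this probe ran from -1.28 to 0.06, with adjusted p from 0.038 to 0.92. It changed sign with normexp (0.06, all-probe median 0.34). Of 409 alternatives of single probes, 384 kept direction and call, 21 changed sign and 4 went past the threshold; the cause was not tested. The sign changed for CD86 A_72_P035396 with array weights (-0.20), brightness as a covariate (-0.29), without slide 4 (-0.15), without slides 3 and 4 (-0.44), as the mean of its probes (-0.17) and with single arrays left out (-0.10 to 0.25). It changed for CD86 A_72_P539768 with normexp (0.32), for FCER1G A_72_P077471 without slides 3 and 4 (-0.02) and for LYZ A_72_P177571 without slide 4 (-0.02). For TYROBP A_72_P650098 it changed with normexp (-0.02), without slide 4 (-0.01), without slides 3 and 4 (-0.09) and with single arrays left out (-0.09 to 0.13). Requiring all 14 arrays above background left 12 of 14 marker probes.

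With the replicate block, 335 of all tested probes passed and 0 marker probes did; the numbers do not pair the animals. The count over all tested probes, 1449 as reported, was 2254 with quantile normalization, 2256 from the authors' deposited log2 table, 18353 with normexp, 2551 with no filter, 18 with a random block for the slide and 148 with one for the scan day, 4 with brightness as a covariate, 236 without slide 4 and 195 without slides 3 and 4. Leaving out single arrays gave 730 to 2710: 730, 909, 932 and 827 without sham 1, 2, 3 and 6, and 2710, 796, 732 and 951 without OA 1, 2, 3 and 5. The 6 list genes past the threshold became 0 with the slide as a random block, 3 as means of all probes and 46 with normexp. Group and slide cannot be told apart, and signals near background, as on slide 4, limit the dim CD14 and CD86 probes.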
